A study of Mus musculus with 4 samples.

Results

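Neutrophils carry antimicrobial and other proteins ready-made in granules. Here 10 genes, grouped as granule genes of neutrophil maturation, were followed through immune cells sorted from healing mouse skin. The genes Mpo, Elane, Prtn3, Ltf, Camp, Ngp, Lcn2, Mmp8, Retnlg and Lyz2 were taken by symbol, and all 10 were found among the 31053 genes of the count tables. The cells came from excisional back wounds of 3 mm in 8-week-old male mice and were live CD45+ cells, that is, leukocytes of any kind. Angptl4+/+ wounds were from C57BL6/J mice and Angptl4-/- wounds from mice lacking angiopoietin-like 4, a secreted inhibitor of lipoprotein lipase. Per the methods of the study the mice of each genotype came from a different source. Genotype therefore cannot be told apart from colony or line. Tissue of each genotype was taken 1 day and 5 days after wounding (1 and 5 dpw). Each of the 4 conditions was 1 library and the number of mice behind it was not given. No test of a difference between conditions was therefore possible, and every interval below is a 95% interval that covers counting error alone.

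Granule proteins are made in waves while the neutrophil matures in bone marrow, and circulating and tissue neutrophils keep the proteins long after the transcripts have declined. Azurophil (primary) granules form at the promyelocyte stage and hold myeloperoxidase (Mpo), neutrophil elastase (Elane) and proteinase 3 (Prtn3). Specific (secondary) granules follow at the myelocyte and metamyelocyte stages with lactotransferrin (Ltf), cathelicidin (Camp), neutrophilic granule protein (Ngp), lipocalin 2 (Lcn2) and the collagenase Mmp8. Gelatinase granules and secretory vesicles come last. Lysozyme (Lyz2) occurs in several granule types and also in monocytes and macrophages, and resistin-like gamma (Retnlg) is a secreted protein of mature mouse neutrophils.

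A total of 19827 of 20069 deposited barcodes passed the filter, and the libraries held 26981596 to 32962595 UMIs. The deleted gene, Angptl4, had 47 and 78 UMIs in the Angptl4+/+ libraries of 1 and 5 dpw and 0 in both Angptl4-/- libraries. Cells were clustered without 31 granule genes, the 10 members included, and clusters were named from separate markers. Neutrophil-like cells, whose 6 clusters each showed all 8 neutrophil markers used, numbered 3887 (1 dpw) and 2697 (5 dpw) for Angptl4+/+ and 3698 and 3500 for Angptl4-/-. Their median depth was 4683 and 4637.5 UMIs a cell at 1 dpw but 3218 and 3392.5 at 5 dpw, in the same order of genotypes. Levels are therefore given as counts per 1e+06 UMIs of the class (CPM), and shares of cells with a UMI after thinning every cell to 1000 UMIs. A level scaled to the total cannot tell fewer transcripts of one gene from more of all others.

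Of the members, 4 lie on chromosome 9 of GRCm38. Camp, on the minus strand, occupied 109847379 to 109849617 with 4 exons in its first listed transcript. Ngp (110419747 to 110423012, plus strand, 4 exons) began 570.1 kb beyond it, and Ltf (111019271 to 111042767, plus strand, 17 exons) a further 596.3 kb away. Mmp8 (7558456 to 7568485, plus strand, 10 exons) was at the other end of the chromosome. Prtn3 (79874476 to 79883174, 5 exons) and Elane (79886247 to 79888215, 5 exons) were neighbours on the plus strand of chromosome 10, 3.1 kb apart. Lyz2 (117277331 to 117282321, minus strand, 4 exons) was on the same chromosome. Lcn2 was on chromosome 2 (32384633 to 32388252, minus strand, 6 exons), Mpo on chromosome 11 (87793581 to 87804413, plus strand, 14 exons) and Retnlg on chromosome 16 (48872621 to 48874496, plus strand, 4 exons).

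The sequence just before the start of 4 members is shown, namely the members whose levels moved most between the days (Ngp, Retnlg), the collagenase also counted in monocyte-like cells (Mmp8), and the member whose change between days differed in direction between genotypes (Ltf). Capitals mark letters that spell a C/EBP motif (TTGCNNAA, or TTNNGCAA on the other strand) or a PU.1 motif (GAGGAA, or TTCCTC on the other strand). C/EBP factors and PU.1 are the transcription factors best known for driving granule genes. The windows are on the plus strand of GRCm38.p6 from RefSeq, at chr9:110419558-110419746 for Ngp, chr9:7558179-7558428 for Mmp8, chr16:48872358-48872607 for Retnlg and chr9:111019042-111019270 for Ltf, and end just before the annotated gene for Ngp and Ltf and just before the RefSeq start, ahead of the annotated gene, for Mmp8 and Retnlg.
Ngp: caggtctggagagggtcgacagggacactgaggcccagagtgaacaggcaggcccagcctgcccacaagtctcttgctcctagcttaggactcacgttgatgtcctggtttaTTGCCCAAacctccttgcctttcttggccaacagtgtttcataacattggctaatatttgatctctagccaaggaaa
Mmp8: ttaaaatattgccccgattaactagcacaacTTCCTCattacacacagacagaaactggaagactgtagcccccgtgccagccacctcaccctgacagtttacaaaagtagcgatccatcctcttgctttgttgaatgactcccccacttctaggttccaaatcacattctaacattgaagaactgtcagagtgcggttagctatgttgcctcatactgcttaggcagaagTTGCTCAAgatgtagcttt
Retnlg: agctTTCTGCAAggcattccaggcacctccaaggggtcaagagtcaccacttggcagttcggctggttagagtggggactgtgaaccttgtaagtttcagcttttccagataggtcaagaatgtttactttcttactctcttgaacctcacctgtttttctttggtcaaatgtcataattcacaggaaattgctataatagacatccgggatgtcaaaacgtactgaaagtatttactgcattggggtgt
Ltf: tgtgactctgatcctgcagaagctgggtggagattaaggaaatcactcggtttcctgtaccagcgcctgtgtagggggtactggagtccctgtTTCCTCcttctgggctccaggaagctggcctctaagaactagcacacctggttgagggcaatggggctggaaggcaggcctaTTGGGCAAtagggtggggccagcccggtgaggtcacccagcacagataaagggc

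In the 250 bases before the RefSeq start, the C/EBP letters were found for 5 of the 10 members (Ltf, Ngp, Lcn2, Mmp8 and Retnlg), against 9.56% of all 32851 windows of that length. The PU.1 letters were found for 6 members (Ltf, Lcn2, Mmp8, Elane, Mpo and Prtn3), against 23.3% of all windows. The letters of a Runx motif (TGTGGT, or ACCACA on the other strand) were found for Lyz2 alone, against 14% of all windows. These are matches of letters and not measured binding. Some windows were not upstream of the annotated gene positions given above. Those of Lcn2 (32387740 to 32387989) and Prtn3 (79879417 to 79879666) lay inside the annotated gene. Those of Ltf, Ngp, Camp, Elane, Mpo and Lyz2 reached into it.

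Transcripts of the azurophil proteins were near 0 in neutrophil-like cells. Elane, a serine protease that digests bacteria and matrix, had 0, 3, 1 and 0 UMIs over all neutrophil-like cells of Angptl4+/+ 1 dpw, Angptl4+/+ 5 dpw, Angptl4-/- 1 dpw and Angptl4-/- 5 dpw wounds, an order kept below. Mpo, the enzyme that makes hypochlorous acid, had 5, 9, 4 and 5 UMIs. Prtn3, the protease next to Elane, had 25, 24, 13 and 14 UMIs. None of the 3 reached the 100 UMIs set for comparing libraries in this class, so no ratio is read from them.

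The level of Prtn3 was highest in monocyte-like cells. It there was 177 CPM (161 to 196, 401 UMIs), 19.9 CPM (13.1 to 28.9, 27 UMIs), 175 CPM (157 to 195, 322 UMIs) and 31.01 CPM (22.5 to 41.6, 44 UMIs). Both 1 dpw libraries lay above both 5 dpw libraries. Between 1 and 5 dpw the log2 ratio was −3.16 for Angptl4+/+ (−3.78 to −2.60) and −2.50 for Angptl4-/- (−2.99 to −2.04). In both genotypes Prtn3 reached the UMI minimum for comparing libraries through its 1 dpw counts alone. These ratios could therefore only be read if Prtn3 was high at 1 dpw. At 1 dpw the genotypes differed by −0.02 on the log2 scale, with an interval of −0.24 to 0.20. After thinning, 14.9%, 1.38%, 11.6% and 2.99% of monocyte-like cells had a Prtn3 UMI, against 75.3%, 12.3%, 70.5% and 20.1% as deposited. In NK cell/T cell-like cells, which should lack the gene, Prtn3 had 0, 0, 4 and 0 UMIs, the 4 in a single cell. Elane, on the same stretch of chromosome 10, had 14, 0, 18 and 2 UMIs in monocyte-like cells and 0, 2, 4 and 0 in macrophage-like cells. Monocyte-like cells were few, at 129 to 154 a library.

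The level of Prtn3 in macrophage-like cells was 10.0, 8.95, 6.89 and 1.69 CPM. They held 69.6% of all Prtn3 UMIs (117 of 168) of the Angptl4+/+ 5 dpw library, against 16.1% in monocyte-like cells. This split depended on the clustering. At resolution 1.0 macrophage-like cells of that library held 92 Prtn3 UMIs and monocyte-like cells 51. The Angptl4-/- 5 dpw library was the lowest, with 13 UMIs against 117 in Angptl4+/+ wounds of that day (log2 ratio −2.41, −3.36 to −1.58). Here Prtn3 reached the UMI minimum for comparing libraries through the Angptl4+/+ count alone. This ratio could therefore only be read if Prtn3 was high in that library.

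The plot of levels by class shows these values for all members.

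**Figure D1:**
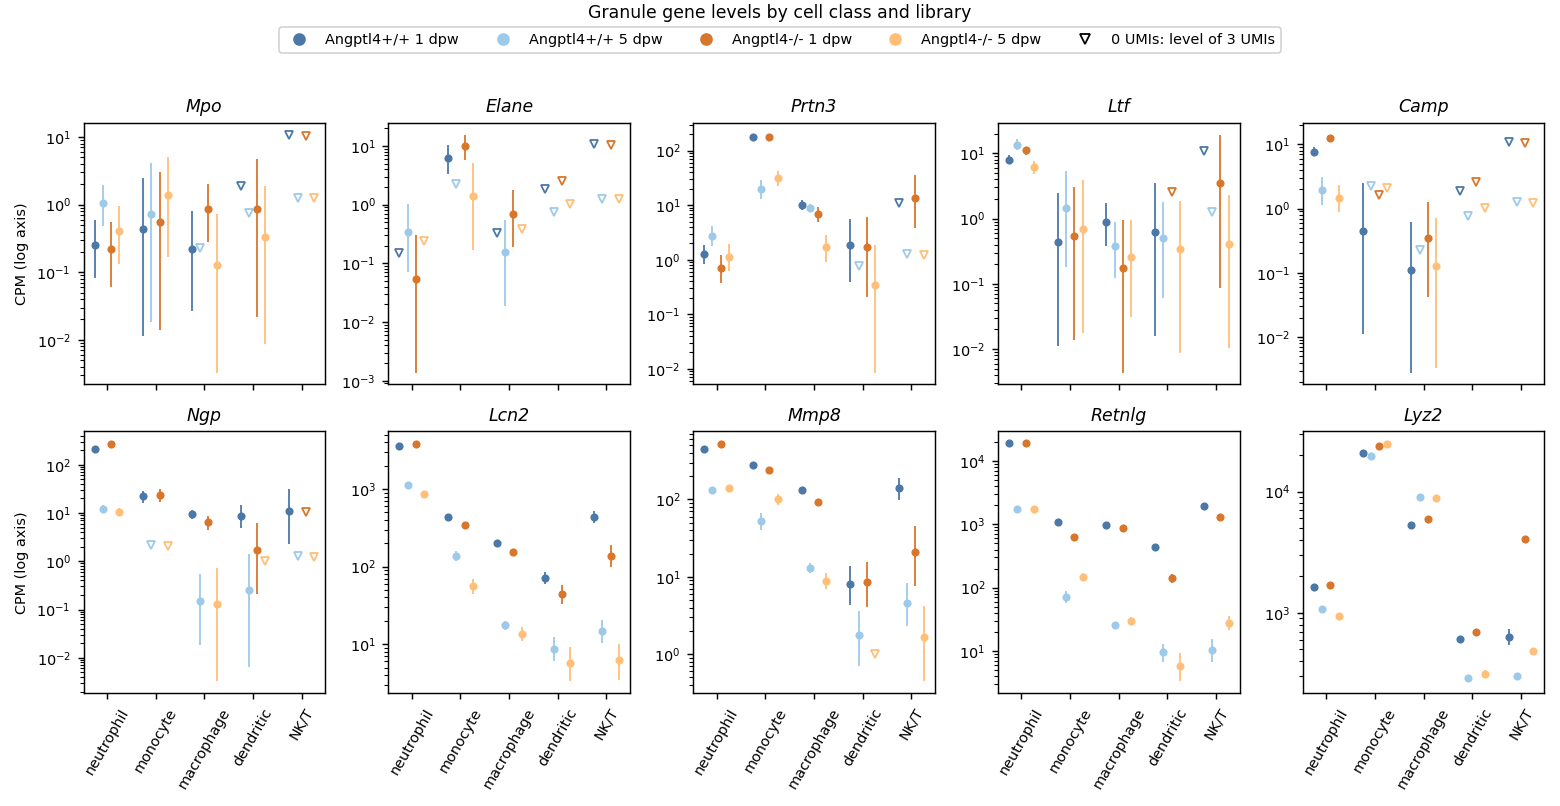
Level of each of the 10 granule genes in CPM (log axis) in neutrophil-, monocyte-, macrophage-, dendritic cell- and NK cell/T cell-like cells of the 4 libraries, with exact Poisson 95% intervals; open triangles stand at the level of 3 UMIs where none was counted. Prtn3 is highest in monocyte-like cells at 177 and 175 CPM at 1 dpw, and Retnlg in neutrophil-like cells is at 18899 and 1765 CPM, and at 18881 and 1751 CPM, on the 2 days.

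Of the proteins made later in maturation, 7 members had at least 100 UMIs in neutrophil-like cells, and 5 of them (Camp, Ngp, Lcn2, Mmp8 and Retnlg) were lower by at least 2-fold at 5 dpw in both genotypes. None of the 7 was higher by 2-fold. Over all measured genes of these cells 1.88% were lower and 30.5% higher by at least 2-fold in Angptl4+/+ wounds (6603 genes), and 1.81% lower and 32.7% higher in Angptl4-/- wounds (6669 genes). The median gene was itself higher at 5 dpw, by 0.65 and 0.68 on the log2 scale, and the median over the measured members was −1.75 and −2.14. After centring on the median gene, 8.42% of genes were higher and 8.09% lower in Angptl4+/+ wounds, and 9.64% higher and 7.35% lower in Angptl4-/- wounds. Of the 7 measured members, 6 in Angptl4+/+ and 7 in Angptl4-/- wounds were then lower by 2-fold. Camp reached the minimum through its 1 dpw counts alone and could only be counted if it was high there. The other 4 of the 5 named above also had over 100 UMIs at 5 dpw. Ltf, lower by 2-fold in Angptl4-/- wounds after centring alone, had 75 UMIs at 5 dpw.

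Ngp, a cathelicidin relative stored in specific granules, changed most. Its level was 215 CPM (209 to 222), 12.4 CPM (10.2 to 15.0), 269 CPM (262 to 277) and 10.7 CPM (8.93 to 12.7). The 1 dpw libraries thus lay 17.4-fold and 25.2-fold above those of 5 dpw, with log2 ratios of −4.12 (−4.41 to −3.84) and −4.66 (−4.92 to −4.41). From the lowest ratio, Ngp ranked 2 of 6603 genes in Angptl4+/+ and 2 of 6669 in Angptl4-/- wounds. The share of neutrophil-like cells with an Ngp UMI was 8.18%, 0.503%, 9.82% and 0.528% after thinning and 18.9%, 1.22%, 21.0% and 1.60% as deposited. At 5 dpw the transcript was held by few cells, 33 of 2697 and 56 of 3500, against 735 of 3887 and 775 of 3698 at 1 dpw. The top 1% of cells (27 and 35 cells) carried 94.4% and 84.0% of the Ngp UMIs at 5 dpw, against 37.8% and 34.6% at 1 dpw. With so few positive cells at 5 dpw, a high share in the top 1% was largely fixed.

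Retnlg, whose upstream sequence is shown above, was the most widely detected of the 7 at 1 dpw. Its level was 18899, 1765, 18881 and 1751 CPM, with the libraries of each day almost alike and the days far apart. The log2 ratio of 5 to 1 dpw was −3.42 (−3.44 to −3.40) and −3.43 (−3.45 to −3.41), and Retnlg ranked 7 and 8 from the lowest. The median neutrophil-like cell held 56 and 51 Retnlg UMIs at 1 dpw in Angptl4+/+ and Angptl4-/- wounds, and 0 and 1 at 5 dpw. After thinning, 89.5%, 33.7%, 88.3% and 37.4% of cells had a UMI. NK cell/T cell-like cells had Retnlg at 10.4%, 0.596%, 7.004% and 1.60% of the neutrophil-like level.

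Lcn2, which binds bacterial siderophores and so withholds iron, had 3608, 1126, 3843 and 872 CPM. Between 1 and 5 dpw its log2 ratio was −1.68 for Angptl4+/+ (−1.71 to −1.65) and −2.14 for Angptl4-/- (−2.17 to −2.11). Mmp8, the neutrophil collagenase, had 447 CPM (438 to 457), 133 CPM (126 to 141), 520 CPM (510 to 531) and 139 CPM (133 to 146). Its log2 ratios were −1.75 (−1.84 to −1.66) and −1.90 (−1.98 to −1.83). For both genes the 1 dpw libraries lay above both 5 dpw libraries, whichever the genotype. After thinning, 73.8%, 35.2%, 71.4% and 32.1% of cells had an Lcn2 UMI and 23.7%, 10.0%, 24.9% and 10.1% an Mmp8 UMI.

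Camp, the precursor of the antimicrobial peptide CRAMP, was scarce, with 150, 17, 226 and 18 UMIs or 7.63, 1.97, 12.3 and 1.47 CPM. Between the days its log2 ratios were −1.95 (−2.77 to −1.23) and −3.07 (−3.85 to −2.38). Few cells carried it. At 1 dpw 79 Angptl4+/+ and 101 Angptl4-/- cells had a Camp UMI, with up to 18 and 30 UMIs in a single cell, and the top 1% of cells held 73.3% and 71.7% of its UMIs. UMIs of one cell are not independent of each other. The intervals of all levels and ratios here, those of Camp and Ltf included, are therefore too narrow for a difference between cells. For Ngp, a single cell held 26 of the 107 UMIs of Angptl4+/+ 5 dpw wounds.

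Ltf, an iron-binding protein and the classical marker of specific granules, had a log2 ratio between days above 0 in Angptl4+/+ wounds, unlike the other specific granule members. Its level was 7.98 CPM (6.78 to 9.33, 157 UMIs), 13.7 CPM (11.3 to 16.4, 118 UMIs), 11.1 CPM (9.61 to 12.7, 203 UMIs) and 6.11 CPM (4.81 to 7.66, 75 UMIs). The highest and lowest libraries were those of 5 dpw. Between 1 and 5 dpw the log2 ratio was 0.78 for Angptl4+/+ (0.42 to 1.13) and −0.86 for Angptl4-/- (−1.26 to −0.47), below 2-fold in each. The Angptl4+/+ value was close to the median gene, and was 0.12 after centring on it, whereas the Angptl4-/- value was −1.54 after centring and so past 2-fold. The UMIs came from 113, 72, 108 and 51 cells. The share of cells with an Ltf UMI after thinning was 0.883%, 1.47%, 0.925% and 0.88%, with overlapping intervals at 5 dpw (1.04% to 2.01% and 0.594% to 1.25%).

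Lyz2, which cleaves bacterial cell walls, was lower at 5 dpw by less than 2-fold. Its level in neutrophil-like cells was 1645, 1082, 1692 and 938 CPM, with log2 ratios of −0.60 (−0.64 to −0.57) and −0.85 (−0.88 to −0.82). The 5 dpw libraries lay below both 1 dpw libraries. Centring on the median gene moved these ratios to −1.26 and −1.53.

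Between genotypes at 1 dpw none of the 7 measured members differed by 2-fold, where 0.309% of 6466 genes were higher and 0.665% lower in Angptl4-/- wounds. The log2 ratios of Angptl4-/- to Angptl4+/+ ran from −0.00 for Retnlg (−0.01 to 0.01) to 0.69 for Camp (0.39 to 1.00), with Ltf at 0.47 (0.16 to 0.78), Ngp at 0.32 (0.26 to 0.38) and Mmp8 at 0.22 (0.18 to 0.26). At 5 dpw 1 of 6 measured members, Ltf, was lower by 2-fold in Angptl4-/- wounds, where 0.522% of 6701 genes were higher and 0.492% lower. Its log2 ratio was −1.16 (−1.60 to −0.73), which rests on 75 and 118 UMIs. The other ratios at 5 dpw were −0.37 for Lcn2 (−0.41 to −0.33), −0.21 for Ngp (−0.59 to 0.17), −0.21 for Lyz2 (−0.25 to −0.17), −0.01 for Retnlg (−0.04 to 0.02) and 0.06 for Mmp8 (−0.04 to 0.17). The comparisons share libraries, so they are not independent of each other.

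**Figure D2:**
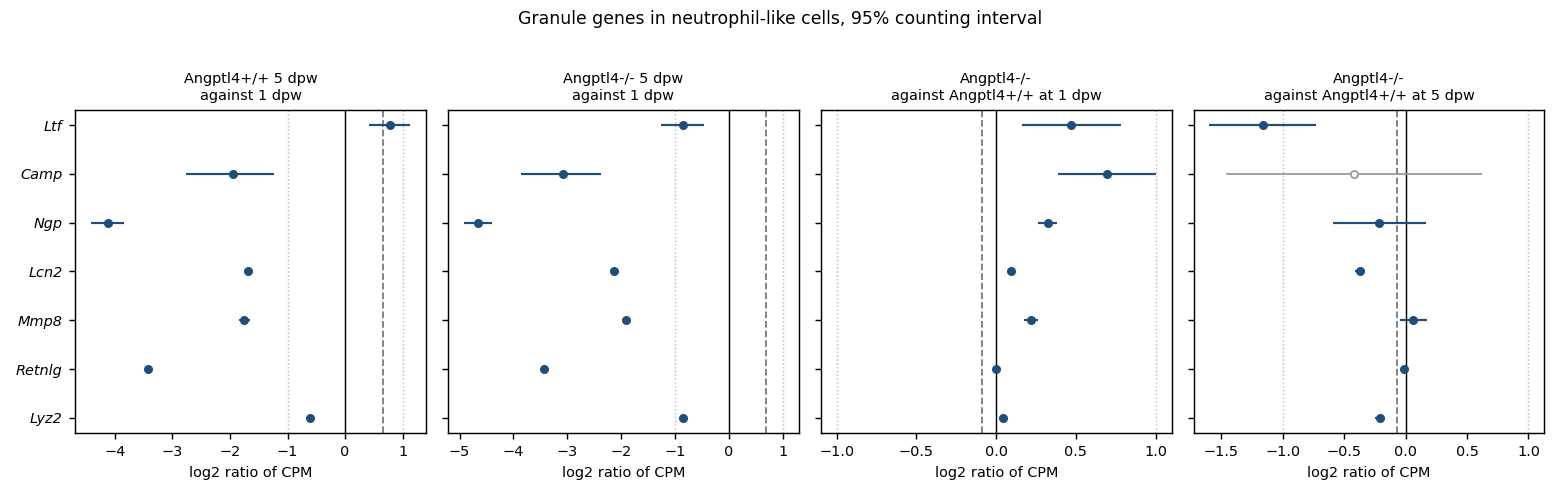
Log2 ratio of CPM in neutrophil-like cells for the 7 measured granule genes in the 4 comparisons, with 95% counting intervals; the dashed line is the median of all measured genes, dotted lines mark 2-fold, and the open grey point is a gene with too few UMIs in that comparison. Ngp and Retnlg lie beyond −3 between the days in both genotypes, while Ltf is at 0.78 in Angptl4+/+ and −0.86 in Angptl4-/- wounds.

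Some cells held transcripts of more than 1 specific granule gene. UMIs of at least 2 of Ltf, Camp and Ngp were found together at 1 dpw in 68 of 3887 Angptl4+/+ neutrophil-like cells (1.75%, 1.36% to 2.21%) and 81 of 3698 Angptl4-/- cells (2.19%, 1.74% to 2.72%). At 5 dpw there were 6 of 2697 (0.222%, 0.0817% to 0.484%) and 3 of 3500 (0.0857%, 0.0177% to 0.250%). Of the 154 monocyte-like cells of Angptl4+/+ 1 dpw wounds 2 held at least 2 of them (1.30%, 0.158% to 4.61%), and no other monocyte-like cell and no macrophage-like or NK cell/T cell-like cell of any library did. After thinning the shares were 0.312%, 0.116%, 0.326% and 0.0293%. As deposited, neutrophil-like cells with an Ngp UMI themselves numbered 735, 33, 775 and 56. The lower joint share at 5 dpw is therefore not independent of the lower Ngp. The joint share that separate detection of the 3 genes would give was not computed. At 1 dpw and after thinning, 41.0% of Ngp-positive cells had an Mmp8 UMI in Angptl4+/+ wounds against 22.2% of the others, and 48.2% against 22.3% in Angptl4-/- wounds. Ngp was found in 40.0% and 42.3% of Camp-positive cells, of which there were 30 and 26, against 7.93% and 9.59% of the others. Ngp was found in 1 of 34 Ltf-positive cells (2.94%, 0.0744% to 15.3%) and 5 of 34 (14.7%, 4.95% to 31.1%), against 8.22% and 9.77% of the others. Before thinning, cells with an Ngp UMI were deeper than the others, with medians of 6007 against 4476 UMIs in Angptl4+/+ wounds and 6029 against 4371 in Angptl4-/- wounds.

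The 6 neutrophil-like clusters differed in these genes although none of the 10 had been used to form them. Cluster 5, led by the peptidoglycan receptor Pglyrp1, Lrg1 and haptoglobin (Hp), held most Ngp at 1 dpw, with 522 CPM (493 to 553) for Angptl4+/+ and 813 CPM (776 to 851) for Angptl4-/-. At 5 dpw the same cluster held 0 Ngp UMIs in 351 cells, which allows up to 2.53 CPM, and 3 UMIs in 456 cells (1.86 CPM). Camp in cluster 5 was 22.1 CPM (16.4 to 29.2) and 59.4 CPM (49.8 to 70.4) at 1 dpw and had 0 UMIs in both 5 dpw libraries. Mmp8 (1151 and 1548 CPM) and Lcn2 (5426 and 6942 CPM) were also highest there at 1 dpw.

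Cluster 0, led by the growth factor Csf1, the chemokine Ccl3 and the granule membrane protein Cd63, was the opposite for Retnlg. It held the least in every library, with 7481, 476, 5920 and 531 CPM, against 26959, 3331, 26585 and 3795 CPM in cluster 5. It held the most Ltf, with 26.5 CPM (21.6 to 32.3), 36.1 CPM (28.6 to 44.9), 27.6 CPM (22.3 to 33.9) and 15.5 CPM (11.6 to 20.4). These were 99 of 157, 80 of 118, 91 of 203 and 51 of 75 of the Ltf UMIs of neutrophil-like cells. At 5 dpw cluster 0 also held 61 of 107 (Angptl4+/+) and 63 of 131 (Angptl4-/-) Ngp UMIs of these cells. Of their Camp UMIs it then held 14 of 17 and 8 of 18.

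The difference between days of Ngp, Lcn2, Retnlg and Mmp8 was present inside the clusters. A cluster was read for a gene with at least 30 of its UMIs over both days. Ngp, Lcn2 and Retnlg were lower by at least 2-fold at 5 dpw in 6 of 6 clusters in both genotypes. At 5 dpw Ngp had 30 UMIs only in clusters 0 and 1. The other clusters reached the minimum through 1 dpw and could only be counted if Ngp was high there. Shares of all genes were not counted within clusters. Mmp8 was so in 6 of 6 clusters of Angptl4+/+ and 5 of 6 of Angptl4-/- wounds. Camp was so in 1 of 2 clusters of Angptl4+/+ and 2 of 2 of Angptl4-/- wounds with at least 30 of its UMIs. No cluster had 30 Camp UMIs at 5 dpw, so the same limit applies to Camp. It also applies to Ltf in cluster 5 of Angptl4-/- wounds, with 3 UMIs at 5 dpw and 42 at 1 dpw. In cluster 0 of Angptl4+/+ wounds the Camp ratio was −0.65 (−1.65 to 0.27). Within clusters the log2 ratio of Retnlg lay between −3.97 and −3.02 (Angptl4+/+) and between −3.62 and −2.81 (Angptl4-/-). Ltf, where a cluster had at least 30 UMIs, was lower at 5 dpw in 0 of 3 clusters of Angptl4+/+ and 4 of 4 of Angptl4-/- wounds. In cluster 0, the only cluster with 30 Ltf UMIs on each day, its log2 ratio was 0.44 (−0.00 to 0.88) and −0.83 (−1.36 to −0.32). In clusters 1 and 4 of Angptl4-/- wounds the interval reached 0 (−2.91 to 0.00 and −2.84 to 0.05). So did that of cluster 4 of Angptl4+/+ wounds (−0.29 to 1.87). Clusters below the minimum went both ways in each genotype. Cluster 5 of Angptl4+/+ wounds was at −2.42 (1 against 10 UMIs) and cluster 7 of Angptl4-/- wounds at 1.88 (6 against 4). Lyz2 ranged from −1.07 to −0.00 and from −1.20 to −0.39.

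**Figure D3:**
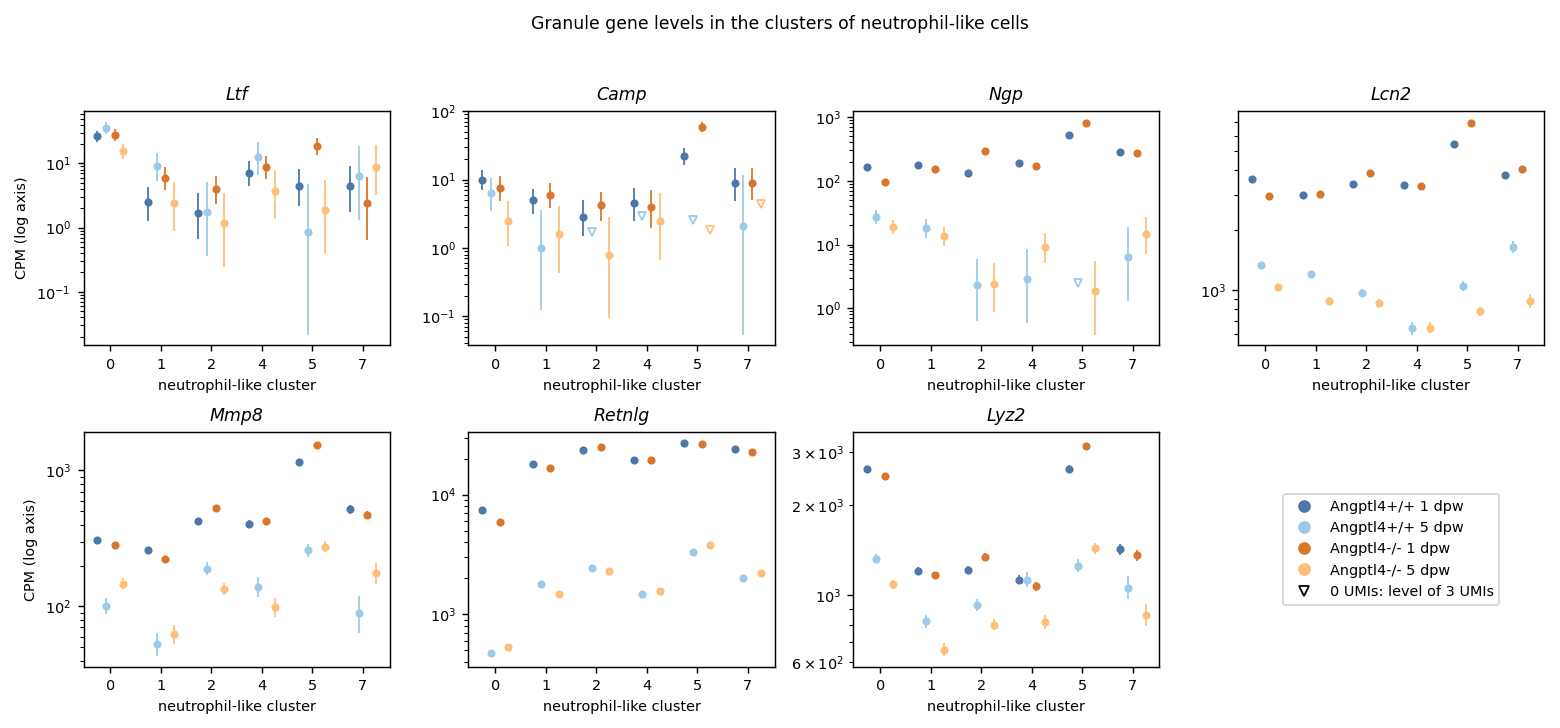
Level of the 7 measured granule genes in CPM (log axis) in the 6 neutrophil-like clusters of the 4 libraries, with exact Poisson 95% intervals; open triangles stand at the level of 3 UMIs where none was counted. Cluster 5 is highest for Ngp at 1 dpw (522 and 813 CPM) and cluster 0 lowest for Retnlg in all 4 libraries.

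Outside neutrophil-like cells, Lyz2 was a gene of monocyte-like and macrophage-like cells. Monocyte-like cells had 20878, 19699, 23606 and 24675 CPM and macrophage-like cells 5253, 8943, 5923 and 8854 CPM. The order was monocyte-like, macrophage-like, then neutrophil-like cells in every library. Macrophage-like cells exceeded neutrophil-like cells by a log2 ratio of 1.67 (1.65 to 1.70), 3.05 (3.02 to 3.08), 1.81 (1.79 to 1.83) and 3.24 (3.21 to 3.27). In macrophage-like cells Lyz2 was higher at 5 dpw, by 0.77 (0.75 to 0.78) and 0.58 (0.56 to 0.60) on the log2 scale, while it was lower in neutrophil-like cells. Dendritic cell-like cells had 610, 290, 690 and 316 CPM. In the 36 NK cell/T cell-like cells of Angptl4-/- 1 dpw wounds, 876 of 1170 Lyz2 UMIs were from a single cell.

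Lyz2 has a near copy, Lyz1, with which it shares 32.8% of its 31-base words, so reads could be left out or assigned to either gene. Lyz1 was counted at 17.7, 150, 104 and 180 CPM in macrophage-like cells and at 0.31 to 2.20 CPM in neutrophil-like cells. Retnlg shares 5.51% of its words with Retnla.

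Mmp8 in monocyte-like cells was closer to its neutrophil-like level than S100a8, Retnlg and Lcn2 were. Its level there was 278 CPM (257 to 301), 52.3 CPM (40.8 to 65.9), 241 CPM (220 to 265) and 101 CPM (84.9 to 119). This was 62.2%, 39.3%, 46.4% and 72.4% of its level in neutrophil-like cells of the same library. S100a8, an abundant neutrophil transcript, was at 6.47%, 10.1%, 3.78% and 6.32% there, Retnlg at 5.71%, 4.05%, 3.39% and 8.37%, and Lcn2 at 11.97%, 12.2%, 9.07% and 6.39%. Other granule genes exceeded their neutrophil-like level in monocyte-like cells. Among these were Prtn3 and Lyz2, as given above, and Chil3, at 2046 against 10.4 CPM in Angptl4+/+ 1 dpw wounds. Elane did so at 1 dpw, with 14 against 0 UMIs in Angptl4+/+ and 18 against 1 in Angptl4-/- wounds. At 5 dpw Elane had 0 against 3 and 2 against 0 UMIs. In macrophage-like cells Mmp8 was at 29.4%, 9.77%, 17.8% and 6.43% of its neutrophil-like level and S100a8 at 6.58%, 1.72%, 5.08% and 1.83%.

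After thinning, 22.7%, 6.90%, 20.2% and 9.70% of monocyte-like cells had an Mmp8 UMI, close to the 23.7%, 10.0%, 24.9% and 10.1% of neutrophil-like cells. The share in NK cell/T cell-like cells was 2.78%, 0%, 0% and 0.455%, or 1 cell of 36, 0 of 227, 0 of 36 and 1 of 220. At the depth deposited, 6 of those 36 cells in Angptl4+/+ 1 dpw wounds held 39 Mmp8 UMIs, 26 of them in a single cell. Leaving out cells called as doublets left the Mmp8 values of monocyte-like cells at 63.4%, 38.5%, 43.0% and 76.3% and those of macrophage-like cells at 26.7%, 8.92%, 16.4% and 5.35%. S100a8 was then at 2.96%, 7.38%, 0.666% and 3.49% in monocyte-like cells and at 1.64%, 0.246%, 1.58% and 0.326% in macrophage-like cells. Between 1 and 5 dpw the log2 ratio of Mmp8 in monocyte-like cells was −2.41 for Angptl4+/+ (−2.79 to −2.06) and −1.26 for Angptl4-/- (−1.54 to −0.99). The part of free RNA in these values was not tested.

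**Figure D4:**
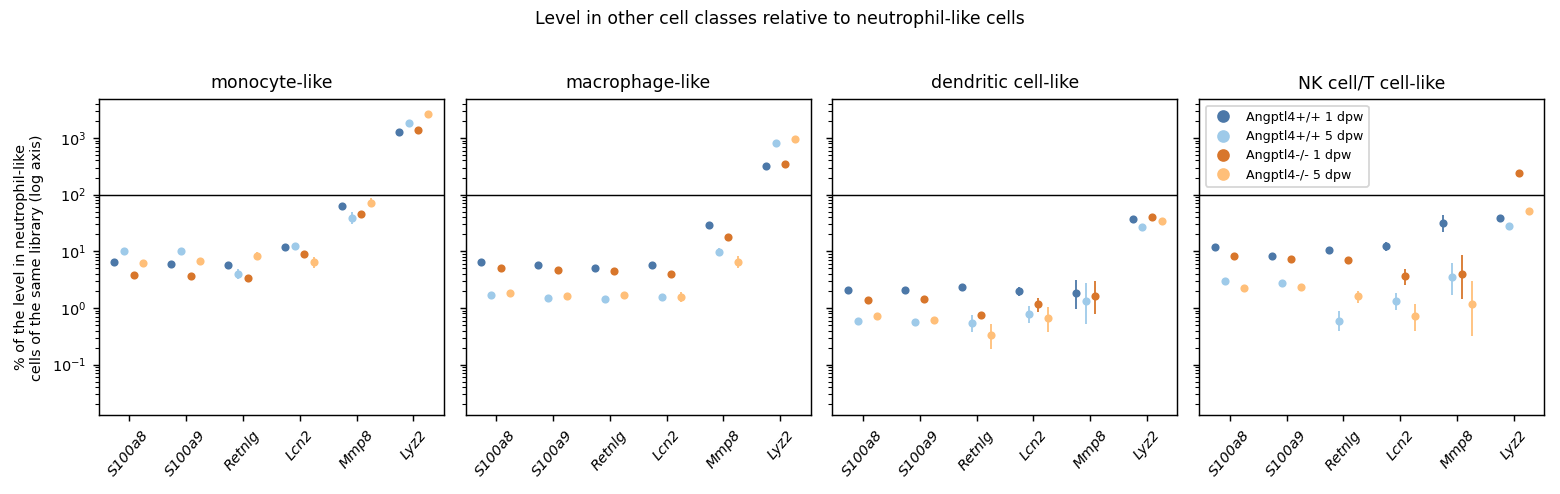
Level of S100a8, S100a9, Retnlg, Lcn2, Mmp8 and Lyz2 in monocyte-, macrophage-, dendritic cell- and NK cell/T cell-like cells as a percentage (log axis) of the level in neutrophil-like cells of the same library, with 95% counting intervals; the line is 100%. In monocyte-like cells Mmp8 lies at 39.3% to 72.4% while S100a8 and S100a9 lie at or below 10.1%.

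Other genes of the granule programme were counted in neutrophil-like cells from fixed lists, against the percentages given above. Among other specific granule genes, 5 of 6 were measured, 0 were higher by 2-fold at 5 dpw, and 1 in Angptl4+/+ and 2 in Angptl4-/- wounds were lower. Cd177, a surface partner of proteinase 3, had 98.1 and 17.1 CPM at 1 and 5 dpw for Angptl4+/+ (log2 ratio −2.52, −2.77 to −2.28) and 125 and 53.5 CPM for Angptl4-/- (−1.23, −1.36 to −1.10). Pglyrp1, which binds peptidoglycan, was at −0.82 and −1.04, Olfm4 at −0.67 and −0.66, and Hp at 0.09 and 0.05. Of other gelatinase granule and secretory vesicle genes, 8 of 10 were measured, with 0 higher and 2 and 3 lower. These were Cybb, the NADPH oxidase core (−1.18 and −1.41), the formyl peptide receptor Fpr1 (−1.06 in both), and in Angptl4-/- wounds also the membrane metalloproteinase Mmp25 (−0.77 and −1.19). The gelatinase Mmp9 was at −0.25 and −0.63. After centring on the median gene the lower calls were 4 and 4 of the 5 specific granule genes and 7 and 4 of the 8 gelatinase granule and secretory vesicle genes, with 0 higher in either list.

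Only 1 of 5 other azurophil genes was measured, the membrane protein Cd63, at 0.60 and 0.66. Both cytosolic calgranulins were measured, which are abundant neutrophil proteins that lie outside granules. S100a8 was at −0.98 and −1.02 and S100a9 at −0.79 and −0.96, so that 0 passed 2-fold in Angptl4+/+ and 1 in Angptl4-/- wounds. Of 2 inhibitors of granule proteases, Serpinb1a was lower (−1.52 and −1.12) and Slpi was at −0.10 and −0.06. Of 4 genes of granule packing and release, 1 was higher, Vps13b (1.54 and 1.59), and 0 were lower. After centring, Vps13b passed 2-fold in neither genotype, both calgranulins were lower in both, and Serpinb1a stayed the 1 inhibitor that was lower.

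Transcription factors of granule genes were on the other side of 0, like the median gene. Of 8 on the list 5 were measured, 2 in Angptl4+/+ and 3 in Angptl4-/- wounds were higher by 2-fold at 5 dpw, and 0 were lower. Cebpe, which is needed for specific granules to form, was at 1.38 (1.11 to 1.65) and 1.28 (0.99 to 1.57). Cebpd was at 1.48 and 1.02, Runx1 at 0.99 and 1.36, Spi1, which encodes PU.1, at 0.47 and 0.32, and Cebpb at 0.21 and 0.32. After centring on the median gene 0 of the 5 passed 2-fold in either direction. Of 6 cell division genes 1 was measured, Mki67, and it passed 2-fold in neither genotype as given and in Angptl4+/+ wounds (−1.11) after centring. Between genotypes at 5 dpw, Cd177 (1.64, 1.38 to 1.91) and Serpinb1a (1.04, 0.47 to 1.63) were higher by 2-fold in Angptl4-/- wounds and no other listed gene passed. Serpinb1a was below the UMI minimum in the Angptl4+/+ library and reached it through its Angptl4-/- count. It could therefore only be called if it was high there. At 1 dpw none passed.

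The genes whose levels resembled a member's were ranked by Pearson r of log2(CPM + 10) over 46 sums of cells, 1 for each cluster and library with at least 20 cells, among 11501 genes. These sums share libraries and cells of related types, so r is a description. Nearest to Ngp were Itgb2l (0.93), Prok2 (0.93) and Tinagl1 (0.92), and to Camp Itgb2l (0.87), Tinagl1 (0.87) and Gpr27 (0.85). Nearest to Retnlg were Wfdc21 (0.97), Mrgpra2b (0.96) and Lcn2 (0.95), and to Lcn2 Mrgpra2b (0.97), Wfdc21 (0.97) and S100a8 (0.95). Mmp8 was nearest to Lcn2 (0.92), Wfdc21 (0.92) and Retnlg (0.91). Ltf had other neighbours, Gm19510 (0.86), Tbc1d2 (0.85) and Klhdc4 (0.82), and its r with the other specific granule members ran from 0.46 for Mmp8 to 0.60 for Lcn2. Prtn3 was nearest to Gpx3 (0.92), Ctdspl (0.91) and Crybb1 (0.90), and Lyz2 to Naip2 (0.85), Clec4a2 (0.84) and C1galt1c1 (0.84). Between Lyz2 and Prtn3 r was 0.66, and between Lyz2 and Retnlg 0.06. Elane and Mpo had fewer than 100 UMIs in all and were not ranked.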

How the data were processed

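Droplet 3′ libraries of sorted CD45+ cells were measured, 1 for each genotype and time point. Per the labels, the authors used Cell Ranger (3.1.0), mm10 and Seurat 3.0, and the deposited values are unnormalised UMI counts over 31053 genes. Barcodes with at least 200 genes and at most 10% mitochondrial UMIs were kept, which removed 242. Of the kept barcodes, 48 occurred in more than 1 library, and 1 kept barcode of the Angptl4-/- 5 dpw library held 15994 haemoglobin UMIs. Libraries were joined by anchors on 2000 variable genes and 30 dimensions and clustered at resolution 0.5 (Seurat 5.3.0, Matrix 1.6.5, R 4.3.3). A class needed at least 3 markers detected in at least 5% of cells, so class shares can differ from the study's. Cells scored against simulated doublets at an expected 0.8% per 1000 cells (3.80% to 4.28% called) were kept. Counts were summed over the cells of a class as CPM with exact Poisson intervals. Shares had exact Clopper-Pearson intervals, and ratios exact conditional binomial intervals, at 95% (SciPy 1.17.1, NumPy 2.4.6, pandas 2.3.3, scikit-learn 1.9.0, Python 3.11.15). Interval coverage was tested only on simulated independent counts, which leave out the dependence of UMIs within a cell and differences between animals. A gene was measured with at least 100 UMIs over both sides of a comparison and was called at 2-fold. A count of 0 allows up to 3 UMIs. Thinning drew 1000 UMIs a cell and left out shallower cells.

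Named genes were the 10 members, the 3 genes most like each, the genes of the lists above with the largest ratios first, and Angptl4. S100a8 serves as both a listed gene and a marker. The members and lists were chosen with earlier results of these data known. Gene positions came from GENCODE vM21. Alternatives were other filters, resolutions, minimums and folds, no integration, clustering with the granule genes, doublets left out, thinning, and centring.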

Additional observations from a re-analysis of the deposited data

Results flagged for a closer look

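The log2 ratio of Ltf between 1 and 5 dpw in neutrophil-like cells was 0.78 for Angptl4+/+ and −0.86 for Angptl4-/-, so the only library pair of each genotype moved in opposite directions. After centring on the median gene the values were 0.12 and −1.54, so Ltf in Angptl4+/+ wounds stayed close to the median gene. With 1 library a condition this difference was not tested.

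The 242 barcodes that failed the filter, which no comparison used, also held granule transcripts above 3 UMIs. Over the 4 libraries they held 976 UMIs of Lyz2, 489 of Retnlg, 170 of Lcn2 and 25 of Mmp8. Of the Retnlg UMIs, 452 were in the 73 failing barcodes of Angptl4+/+ 1 dpw wounds.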

How the results depend on the processing

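With 1 library per condition no replicate could be left out. No paired analysis was possible because the result comes from no test and each group has 1 library. In neutrophil-like cells 178 of 181 alternative ratios of the members kept their sign, and all 74 alternatives of ratios past 2-fold stayed past 2-fold in the same direction. The alternatives shared 96.8% to 100% of the main neutrophil-like cells, so close values were largely fixed in advance. Centring lowered every ratio between days. Ratios left unmeasured by an alternative, such as that of Camp between days on thinning, are not among these counts. Between days the Ltf ratio lay at 0.12 to 0.78 for Angptl4+/+ and at −1.54 to −0.82 for Angptl4-/-. With a minimum of 1 UMI, 8 members passed 2-fold between days in Angptl4+/+ wounds, 1 between genotypes at 1 dpw and 4 at 5 dpw. The members added were among Elane, Mpo and Prtn3, which had at most 25 UMIs a library. Between days in Angptl4+/+ wounds these were higher, and at 5 dpw they were lower in Angptl4-/- wounds. At 1 dpw the 1 was Elane, with 1 against 0 UMIs. Shares of all genes at other minimums and folds were not counted. With a minimum of 30 UMIs 2 passed at 5 dpw, a fold of 1.5 gave 1 at 1 dpw, and thinning left 0 at 5 dpw, where Ltf then had too few UMIs to be measured, and 4 of 5 measured members between days in each genotype, Camp and Ltf being too scarce. The share of neutrophil-like cells with at least 2 of Ltf, Camp and Ngp fell on thinning to 0.312% (Angptl4+/+) and 0.326% (Angptl4-/-) at 1 dpw. The log2 ratio of Lyz2 in macrophage-like to neutrophil-like cells moved in Angptl4+/+ 1 dpw wounds to 1.65 with no integration, 1.498 at resolution 1.0, 1.70 without doublets and 1.34 on thinning, and in Angptl4+/+ 5 dpw wounds to 2.94 at resolution 1.0 and 2.93 on thinning. In Angptl4-/- wounds it moved at 1 dpw to 1.63 at resolution 1.0 and 1.45 on thinning, and at 5 dpw to 3.16 at resolution 1.0 and 3.28 without doublets. Mmp8 in monocyte-like cells as a percentage of its neutrophil-like level, with alternatives chosen after seeing the data, was 48.9%, 30.0%, 40.4% and 55.1% at resolution 1.0, 50.5% in Angptl4+/+ 5 dpw wounds both with no integration and on thinning, and 55.1% in Angptl4-/- 1 dpw wounds on thinning. The cause of these moves was not tested.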
